A study of Mus musculus with 4 samples.

Results

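The microRNAs (miRNAs) described here are 8 that are enriched in nervous tissue or tied to axon guidance: mmu-miR-9, mmu-miR-124, mmu-miR-128, mmu-miR-132, mmu-miR-137, mmu-miR-212, mmu-miR-218 and mmu-miR-219, written below without the species prefix mmu. They were chosen by probe name, without opposite-arm entries, from the 696 mouse miRNA probes of an Agilent array, and all 8 probes were present. Untreated embryos of the outbred ICR strain gave total RNA of the mandibular molar tooth germ at E11, E12, E14 and E16, where E counts days of embryonic development. Each stage has 1 array, and the sources used here do not say how many embryos or litters an array holds. No p-value or spread between animals can therefore be given for any difference, and errors printed with ± are the array's stated signal errors.

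Several of these miRNAs are textbook marks of neural cells. miR-9 acts in neural progenitors and their differentiation, miR-124 is a neuron-specific miRNA of the brain, and miR-128 and miR-137 are enriched in brain, where they act in neuronal excitability and in neuronal maturation. miR-132 and miR-212 form a tandem that is induced by neuronal activity through the transcription factor CREB. miR-219 promotes the differentiation of oligodendrocytes, the myelinating glia of the central nervous system. miR-218 lies inside the genes of the guidance cues Slit2 and Slit3, represses their Robo receptors and is strongly expressed in motor neurons. A molar germ consists of oral epithelium and of mesenchyme derived from the neural crest, with trigeminal axons growing in the surrounding tissue.

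The mature sequences show which members share a seed, bases 2 to 8 from the 5′ end, which sets most of a miRNA's target choice. They are given from RefSeq (GRCm38.p6) for the 7 of 8 members matched there, with the seed in capitals.
miR-218 (5p arm): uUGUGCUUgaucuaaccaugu
miR-212 (3p arm): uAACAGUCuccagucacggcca
miR-132 (3p arm): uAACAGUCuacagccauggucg
miR-128 (3p arm): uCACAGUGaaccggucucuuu
miR-137 (3p arm): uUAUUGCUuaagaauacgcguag
miR-219 (219a, 5p arm): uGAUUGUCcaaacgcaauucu
miR-9 (5p arm): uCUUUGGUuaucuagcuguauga
The probe names carry no arm, and each was taken as the arm that older miRNA nomenclature gave that name. Among these 7, miR-132 and miR-212 alone share a seed. Counted from the 5′ end, they differ by A10C, C14U, U17C, U20C and G22A from miR-132 to miR-212, with the first 9 bases identical. The seed letters of miR-128 recur in miR-27a-3p, miR-27b-3p and miR-216a-3p shifted by 1 base.

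The genes of these miRNAs are spread over the genome (GRCm38.p6). Mir218-1 lies at chr5:48223942-48224051 within Slit2, and Mir218-2 at chr11:35616816-35616925 within Slit3, both on the plus strand and on the strand of their host. Mir212 at chr11:75173388-75173478 and Mir132 at chr11:75173682-75173747 follow each other on the plus strand, 203 bases apart, with no other annotated gene spanning them. Mir128-1 (chr1:128202361-128202430, plus strand) lies within R3hdm1 and Mir128-2 (chr9:112118636-112118711, minus strand) within Arpp21. Mir137 (chr3:118433857-118433929, plus strand) has no spanning gene in the table. The table of genes used here gives no exons, so intron or exon is not stated.

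Both miR-218 hairpins are shown because they yield the same mature miRNA from different host genes. Capitals mark the mature 5p arm and, after the loop, the locus-specific 3p arm.
Mir218-1 (in Slit2): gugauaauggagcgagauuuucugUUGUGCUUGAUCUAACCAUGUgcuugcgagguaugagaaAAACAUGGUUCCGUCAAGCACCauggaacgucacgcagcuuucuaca
Mir218-2 (in Slit3): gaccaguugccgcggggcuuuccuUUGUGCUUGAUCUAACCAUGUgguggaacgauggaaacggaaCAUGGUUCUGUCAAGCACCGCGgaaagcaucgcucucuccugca
Since the 5p arms are identical, the miR-218 signal cannot be divided between the Slit2 and the Slit3 locus. The locus-specific arms have probes of their own, miR-218-1* and miR-218-2*, and neither was detected at any stage. The other opposite-arm probes on the array, miR-9* and miR-124*, were not detected either.

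Of all 696 miRNAs, 209, 221, 249 and 250 were detected at E11, E12, E14 and E16, and 197 at every stage. The arrays are deposited without scaling between them, and their 75th percentile over those 197 miRNAs was 249.99, 398, 528 and 676. Differences are therefore given as log2 of the later over the earlier stage after division by that percentile, and beside the deposited signals, which lie higher at later stages for most miRNAs. The E14 array stood apart in 24 of the 197 miRNAs, which were at least 2-fold higher there than at E12 and at least 2-fold lower again at E16. None of the 8 members was among these 24. The control feature hur_6, of unstated content, had 60407, 40693, 109779 and 53994 at E11, E12, E14 and E16.

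The tissue label was read against marker miRNAs. All 7 epithelial probes (the miR-200 family, miR-203 and miR-205) were detected at E12, E14 and E16, and 6 of 7 at E11. Of 6 mesenchymal probes 5 were detected at every stage, miR-145 at none, and of 7 muscle probes none was.

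Of the 8 neural-enriched members, 3 were detected at E11, 4 at E12, 3 at E14 and 5 at E16. miR-218, miR-212 and miR-128 were detected at every stage, miR-137 on the E12 and E16 arrays, and miR-219 on the E16 array. The defining neural miRNAs miR-9 and miR-124 were undetected on all 4 arrays, as was miR-132. So were 424 of all 696 miRNAs, and these 3 of 8 members do not set the group apart. An undetected entry is written as 0.1 and is a bound, not a level: the lowest signal detected for any miRNA was 5.48 at E11, 7.43 at E12, 5.69 at E14 and 6.51 at E16. In RNA of whole germs, fewer cells of a type and less RNA per cell cannot be told apart.

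**Figure D1:**
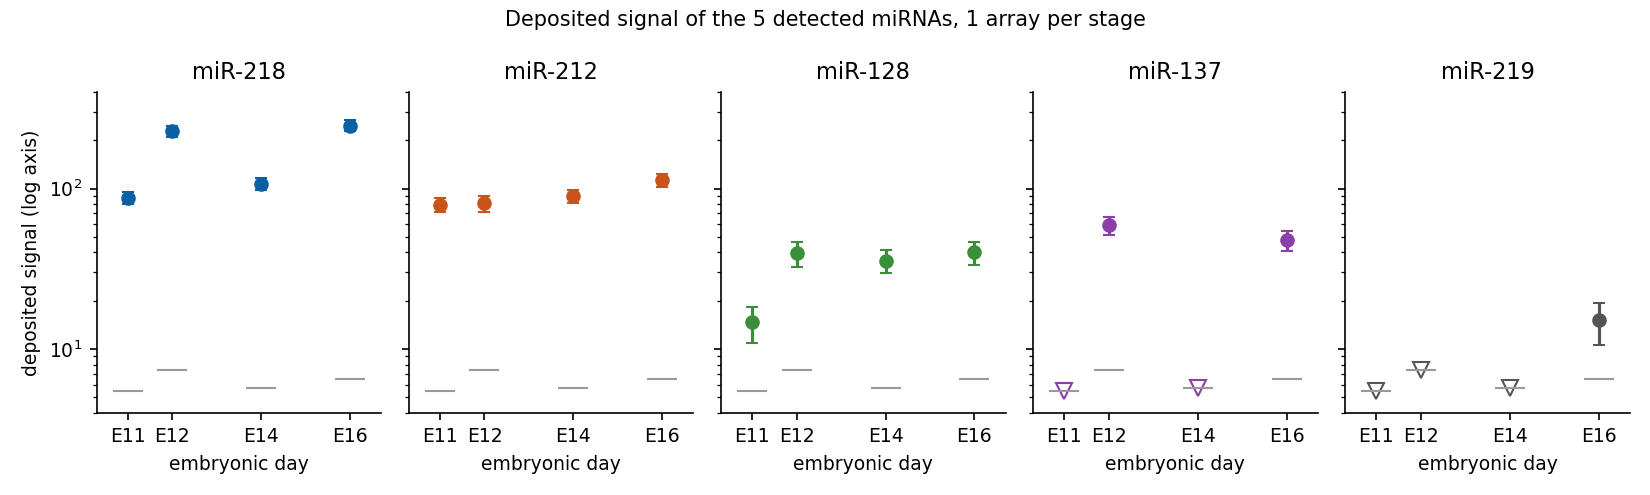
Deposited signal (log axis, arbitrary intensity units) of the 5 detected neural-enriched miRNAs against embryonic day, with bars for the stated signal error, grey dashes for the lowest detected signal of each array and open triangles for undetected stages, drawn at that bound. miR-218 stands high at E12 and E16 (227 and 247) and low at E11 and E14 (87.8 and 107), and miR-137 is detected only at E12 and E16.

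After scaling, miR-218, the Slit-hosted member, had the largest step-to-step difference among the 3 members measured at every stage. On the deposited signals the largest was that of miR-128, 2.71-fold higher at E12 than at E11, against 2.59-fold for miR-218. The deposited signal of miR-218 was 87.8 ± 7.97 at E11, 227 ± 17.6 at E12, 107 ± 9.23 at E14 and 247 ± 18.7 at E16. These deposited signals thus alternate, high at E12 and E16 and low at E11 and E14, with gaps several times the stated errors. After scaling the log2 values were -1.51, -0.81, -2.30 and -1.45 at E11, E12, E14 and E16, so that E16 lay near E11.

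Between E12 and E14, as the bud becomes a cap, miR-218 was 2.81-fold lower at E14 (log2 -1.49 ± 0.17). It was the 1 member at least 2-fold lower of the 3 detected at both stages, where 15.1% of all miRNAs so detected were at least 2-fold lower. Of these miRNAs, 6 had a lower difference than miR-218 and 205 a higher one, a rank that no constant scaling can alter. The median of all was -0.40. The deposited signals alone gave 2.12-fold lower (log2 -1.08), where 4.25% of miRNAs were at least 2-fold lower, and the difference lay between -1.5 and -1.08 over 5 scalings: the 75th percentile over these 197 or over all probes, the median, quantile normalization, and none. The authors' deposited table repeats the quantile normalization and is not counted again.

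On either side of that step miR-218 was higher at the later stage. At E12 it was 1.63-fold higher than at E11 (log2 0.70 ± 0.17), with 29 of 201 miRNAs above it. At E16 it was 1.80-fold higher than at E14 (0.85 ± 0.17), with 26 of 231 above it. Neither passed 2-fold after scaling. Both did on the deposited signals, at 2.59-fold and 2.30-fold, where 22.9% and 15.6% of miRNAs were at least 2-fold higher. Their direction was upward under all 5 scalings. At least 2-fold was reached under 1 of 5 for E12 versus E11 and under 3 of 5 for E16 versus E14.

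After scaling, miR-218 differed little between the ends of the series, unlike on the deposited signals. Its log2 difference was 0.06 ± 0.17 for E16 versus E11, within the stated error of 0, but 1.49 on the deposited signals, where the median of all 205 miRNAs was 0.69. Against E12, which leaves the E14 array out, E16 stood at -0.65 ± 0.16, and at 0.12 on the deposited signals. Whether miR-218 was higher or lower at E16 than at E12 therefore depends on the scaling, while the lower value at E14 than at E12 does not. An up, down and up course is common here: 45 of the 197 miRNAs detected on all arrays had it after scaling, and 72 on the deposited signals. With a downward step of at least 2-fold into E14, it was found in 9 of 197 and in 6 of 197, miR-218 included in both.

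Marker miRNAs of the germ's tissues also differed over the step from E12 to E14. For E14 versus E12 the mesenchymal markers had a median of -0.66, with 1 of 5 at least 2-fold lower, and the epithelial markers a median of 0.27, with 0 of 7 lower. On the deposited signals these medians were -0.25 and 0.68. After scaling the 2 endothelial probes had a median of -0.79 and differed from each other. The bright miR-126-3p stood at -0.44 ± 0.15, near the median of all miRNAs at -0.40. The faint miR-126-5p (16.0 ± 3.88 at E14) was at least 2-fold lower (-1.13 ± 0.45). The 2 cartilage probes had a median of -0.58 with none lower. The summed deposited signal of the mesenchymal probes was 10895, 16953, 11167 and 12753 at E11, E12, E14 and E16. The 2 endothelial probes, both detected throughout, summed to 240, 446, 427 and 791, and the 2 cartilage probes to 87.3, 141, 127 and 267. Of 3 erythroid probes 1 was detected at E11, E12 and E14 and 2 at E16, with sums of 404, 422, 665 and 1230. Of 5 leukocyte probes 0, 1, 1 and 2 were detected, with sums of 0, 17.6, 32.6 and 147. Only the mesenchymal sum among these lists was lower at E16 than at E12. Within it the deposited signals of miR-199a-3p (9031 to 5760), miR-199a-5p (2578 to 2315) and miR-214 (2460 to 1320) were lower. Those of miR-199b* (2832 to 3234) and miR-143 (52.5 to 125) were higher. The part of these lists in the miR-218 difference was not tested.

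The share of G and C bases in the miRNA was computed for 173 of the miRNAs detected at both E12 and E14 (81.6%), from the mature arm or the mean of both arms. Across these miRNAs, which share arrays and are not independent, it correlated with the E14 versus E12 difference at a Spearman rho of 0.31. For E16 versus E14 rho was -0.41 (189 miRNAs), and for E16 versus E12 it was -0.03 (176 miRNAs). For E12 versus E11 it was -0.29 (166 miRNAs) and for E16 versus E11 -0.17 (169 miRNAs). miR-218 has 38.1% G and C and miR-137 34.8%, against 54.5% in miR-212 and 47.6% in miR-128. Of the 65 miRNAs under 45% G and C, 20 were at least 2-fold lower at E14 than at E12, with a median of -0.63, and 2 had a lower difference than miR-218. Of the 108 at or above 45%, 9 were at least 2-fold lower. The part of base composition in the low E14 value of miR-218 was not tested.

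**Figure D2:**
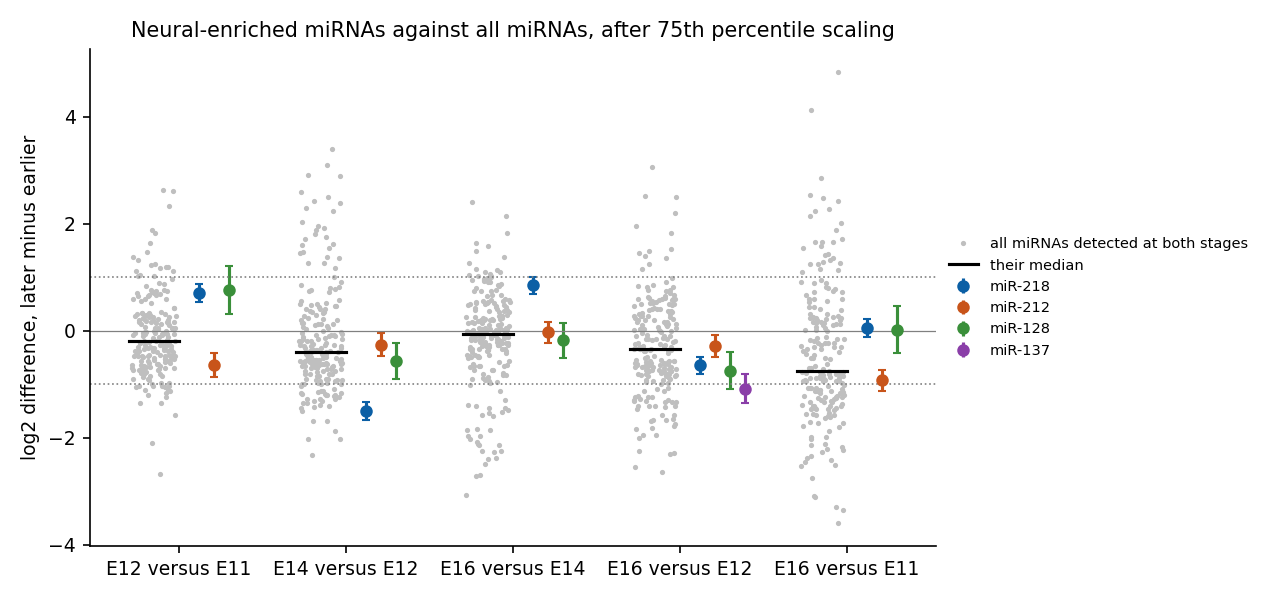
Log2 difference, later minus earlier stage, after 75th percentile scaling for every miRNA detected at both stages (grey points, black line at their median) and for 4 neural-enriched miRNAs (coloured points, bars for the combined stated signal errors), in 5 stage comparisons. Dotted lines mark 2-fold. miR-218 lies at -1.49 for E14 versus E12, near the low end of the miRNAs compared, while miR-212 and miR-128 stay within 2-fold in every comparison.

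miR-137 was detected on the arrays where miR-218 had its higher deposited signals, E12 and E16, and on no other. It was undetected at E11, had a signal of 59.2 ± 7.64 at E12, was undetected at E14, and had 47.5 ± 6.76 at E16. Of 696 miRNAs only 5 had this pattern of detection: miR-136, miR-137, miR-340-3p, miR-362-3p and miR-467e, picked out after their values were seen.

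The undetected stages give bounds for miR-137, nominal because a noisy probe can miss detection at a signal above that floor. At E14 it was at least 13.8-fold lower than at E12, and at E16 at least 6.53-fold higher than at E14. With the floor raised to the 10th percentile of each array's detected signals these bounds are 5.50-fold and 2.60-fold. The bound for E12 versus E11 is at least 6.79-fold higher, or 2.84-fold with the raised floor. At E16 it was at least 3.21-fold higher than at E11, or 1.34-fold with the raised floor. Over 8 settings the bounds stayed above 2-fold at each of the 3 steps, and at 1.34-fold to 8.67-fold for E16 versus E11.

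E16 versus E12 is the 1 comparison in which miR-137 was measured at both stages. It was 2.12-fold lower at E16 (log2 -1.08 ± 0.28), the 1 of 4 members detected at both stages to pass 2-fold, where 19.1% of 215 miRNAs were at least 2-fold lower and the median was -0.34. On the deposited signals its log2 difference was -0.32. The call held under 1 of 5 scalings, and the sign under all 5. Signals at both stages were more than 7 times their stated error (7.03 at E16, 7.74 at E12).

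miR-212 and miR-132 gave unlike readings although their hairpins are neighbours and their seeds are identical. The signal of miR-212 was 79.2 ± 7.95 at E11, 80.9 ± 9.13 at E12, 89.9 ± 8.76 at E14 and 113 ± 10.7 at E16, while miR-132 was undetected throughout. Probes differ in affinity and an undetected entry is only a bound, so the RNA levels of miR-212 and miR-132 cannot be compared from these readings. The deposited signals of miR-212 spanned 1.43-fold.

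After scaling miR-212 was lower at E12 than at E11 by 1.56-fold (log2 -0.64 ± 0.22). Of 201 miRNAs, 46 had a lower difference, and the median of all was -0.20. The later steps were small, at -0.26 ± 0.22 for E14 versus E12 and -0.03 ± 0.20 for E16 versus E14. For E16 versus E11 it stood at -0.92 ± 0.20, close to the median of all miRNAs at -0.74, with 83 of 205 below it. Between the ends of the series miR-212 thus lay near the bulk of the array, though not at the step from E11 to E12. The sign for E16 versus E11 turned to 0.51 on the deposited signals.

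miR-128, made from the R3hdm1 and Arpp21 loci, was weak at E11. Its signal was 14.6 ± 3.72 at E11, 39.7 ± 7.0 at E12, 35.6 ± 5.62 at E14 and 40.2 ± 6.55 at E16. The E11 value lay below the later 3, which overlapped within their errors. At E12 miR-128 was 1.70-fold higher than at E11 after scaling (log2 0.77 ± 0.45) and 2.71-fold higher on the deposited signals, with 23 of 201 miRNAs above it. The E11 signal was only 3.94 times its error. For E16 versus E11 the scaled difference was 0.02 ± 0.44, and it lay between -0.10 and 1.46 over 5 scalings, so its direction is not settled.

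**Figure D3:**
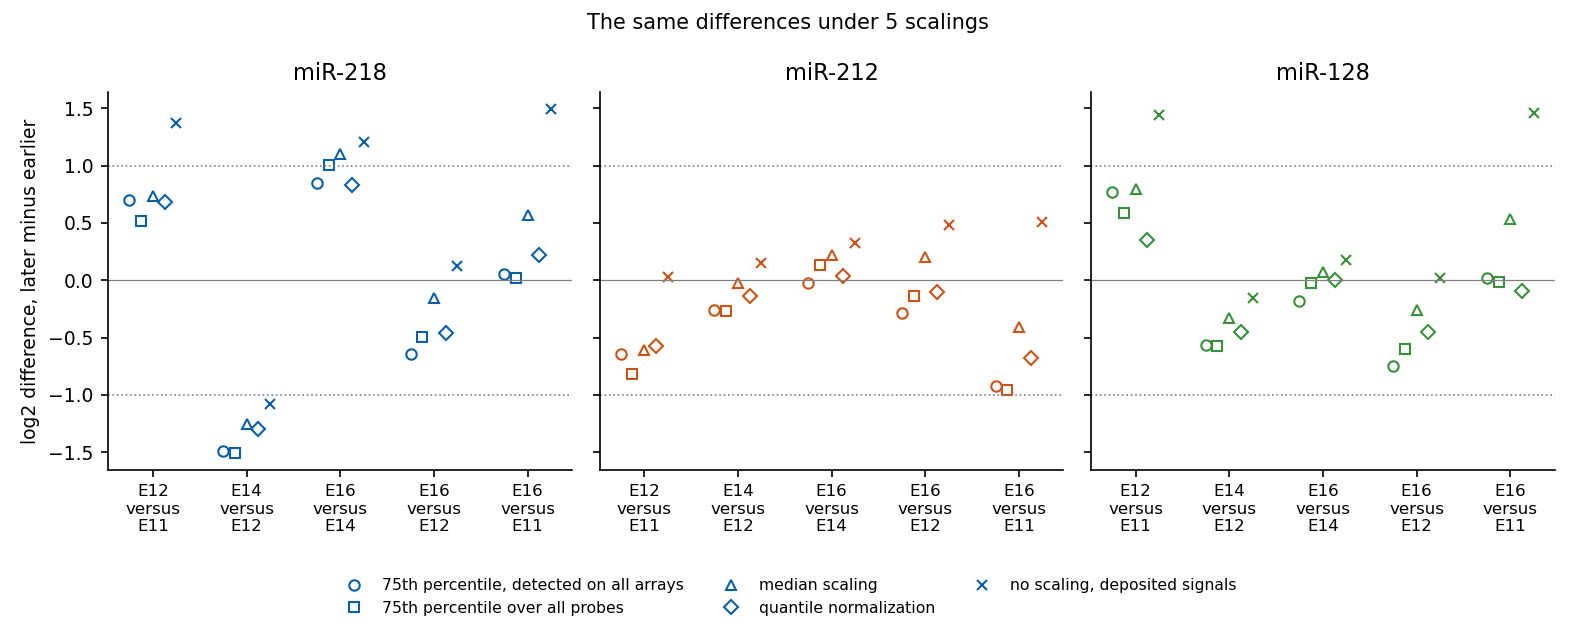
Log2 difference, later minus earlier stage, of miR-218, miR-212 and miR-128 in 5 comparisons, each under 5 scalings (symbols), with dotted lines at 2-fold. For E14 versus E12 all 5 values of miR-218 lie below -1, from -1.5 to -1.08, whereas for E16 versus E11 the values of miR-212 run from -0.96 to 0.51 and cross 0.

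Differences between members within an array do not depend on a constant scaling. From E11 to E12 the log2 change of miR-218 exceeded that of miR-212 by 1.34 ± 0.28, and that of miR-128 exceeded it by 1.41 ± 0.50. Both members thus gained on miR-212 at E12. miR-218 and miR-128 differed at that step by -0.07 ± 0.48, less than the error.

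The next steps parted miR-218 from both others. For E14 versus E12 its change lay below that of miR-212 (log2 -1.23 ± 0.27) and below that of miR-128 (-0.93 ± 0.38). For E16 versus E14 it was above that of miR-212 by 0.87 ± 0.26 and above that of miR-128 by 1.03 ± 0.37. miR-128 and miR-212 differed at these steps by -0.31 ± 0.40 and -0.15 ± 0.38, less than the error. Over the whole series, E16 versus E11, miR-218 gained 0.98 ± 0.26 on miR-212.

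miR-219, the oligodendrocyte miRNA, was detected at E16 alone with a signal of 15.1 ± 4.41, 3.41 times its error. Its bounds are at least 2.07-fold higher than at E14, 1.19-fold than at E12 and 1.02-fold than at E11, and with the raised floor none is above 1. Among all 696 miRNAs, 13 were detected at E16 alone.

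After scaling no member detected at both stages was at least 2-fold higher in any comparison; bounds stand apart from this count. In the same comparisons 13.7% of 205 miRNAs were at least 2-fold higher for E16 versus E11, 9.45% of 201 for E12 versus E11, 12.7% for E14 versus E12, 7.36% of 231 for E16 versus E14 and 6.05% of 215 for E16 versus E12. At least 2-fold lower were 0 of 3 members for E16 versus E11, E12 versus E11 and E16 versus E14, where 37.6%, 8.46% and 13.4% of all miRNAs were. On the deposited signals 2 of 3 members were at least 2-fold higher for E16 versus E11 and for E12 versus E11, miR-218 and miR-128 in both, against 44.9% and 22.9% of all miRNAs, and 0 were lower, against 4.39% and 0.995%. For E14 versus E12 and E16 versus E12 none was at least 2-fold higher there, against 17% and 27.9% of all miRNAs, and for E16 versus E14 and E16 versus E12 none was lower, against 12.1% and 5.12%. With 3 or 4 members measured, these counts describe the members and do not set them apart from the array.

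Other brain-enriched miRNAs were read as a list of 21 probes. Of these, 16 were detected at no stage, among them miR-129-3p, miR-129-5p, miR-138, miR-153 and miR-488. Of all 696 miRNAs, 424 were detected at no stage. The number detected was 2 at E11, 1 at E12, 3 at E14 and 5 at E16. Of the 2 detected at both E16 and E11, both were at least 2-fold lower after scaling, against 37.6% of all miRNAs, and neither passed 2-fold in the deposited values. miR-7a, a neuroendocrine and brain miRNA, was the 1 detected throughout, with 27.5 ± 4.39 at E11, 26.2 ± 5.23 at E12, 23.4 ± 4.25 at E14 and 35.4 ± 5.46 at E16. Its log2 difference for E16 versus E11 was -1.07 ± 0.32, and 0.36 on the deposited signals.

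The other 4 detected members of that list were dim. miR-338-3p, which acts with miR-219 in oligodendrocyte differentiation, was undetected at E11 and E12 and had 12.5 ± 3.75 at E14 and 38.6 ± 5.66 at E16. Its log2 difference for E16 versus E14 was 1.27 ± 0.48, and 1.63 on the deposited signals. Its opposite arm miR-338-5p had 7.53 ± 2.20 at E16 and 5.84 ± 1.81 at E11 and was undetected between. miR-326 was detected at E16 alone (19.9 ± 4.60), and miR-139-3p at E14 (27.2 ± 4.47) and E16 (17.9 ± 4.52). The 3 glial probes, miR-219, miR-338-3p and miR-338-5p, were thus all detected at E16, against 1, 0 and 1 at E11, E12 and E14. Of all miRNAs, 30.0%, 31.8%, 35.8% and 35.9% were detected at E11, E12, E14 and E16. The E16 signals of miR-219 and miR-338-5p were faint. After scaling miR-338-5p was lower at E16 than at E11 (log2 -1.07 ± 0.61), with 0.37 on the deposited signals.

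The sensory ganglion list (miR-183, miR-183*, miR-96 and miR-182) was read beside the neural members because trigeminal axons grow near the germ. Its summed deposited signal, not scaled between arrays, was 604, 842, 868 and 1294 at E11, E12, E14 and E16, with all 4 detected except miR-183* at E12. For E16 versus E11 its median was -0.92 after scaling, where that of all miRNAs was -0.74. At least 2-fold lower was 1 of 4, against 37.6% of all miRNAs. On the deposited signals the median of this list was 0.52, with 1 of 4 at least 2-fold higher, against 44.9% of all miRNAs. Its median for E14 versus E12 was -0.39, where that of all miRNAs was -0.40, with 0 of 3 at least 2-fold lower.

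The miRNAs nearest in course to each member detected throughout were named by the root mean square (RMS) difference of their log2 profiles over the 4 stages, each centred on its own mean. For miR-218 they were miR-126-5p (0.16), miR-340-5p (0.17), miR-450a-5p (0.17), miR-301a (0.19) and miR-542-3p (0.21), where the median of 194 miRNAs was 0.64. All 5 were low at E14, which follows from picking them for likeness to miR-218. miR-450a-5p, for example, had 43.2, 84.1, 42.4 and 92.4 at E11, E12, E14 and E16. The fainter miR-126-5p had 13.8 ± 3.68, 26.3 ± 5.23, 16.0 ± 3.88 and 34.3 ± 5.38. Its opposite arm, the endothelial miR-126-3p, was not among the 5 and had 226, 419, 411 and 757. For miR-212 they were miR-15b (0.07), miR-182, miR-17*, miR-1198 and miR-181b (0.11), and for miR-128 miR-337-3p (0.12), miR-351, miR-500, miR-100 and miR-30c (0.19). A constant scaling cannot alter these names, but quantile normalization kept 1 of 5 for miR-218, 2 of 5 for miR-212 and 1 of 5 for miR-128, so the names depend on the scaling.

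**Figure D4:**
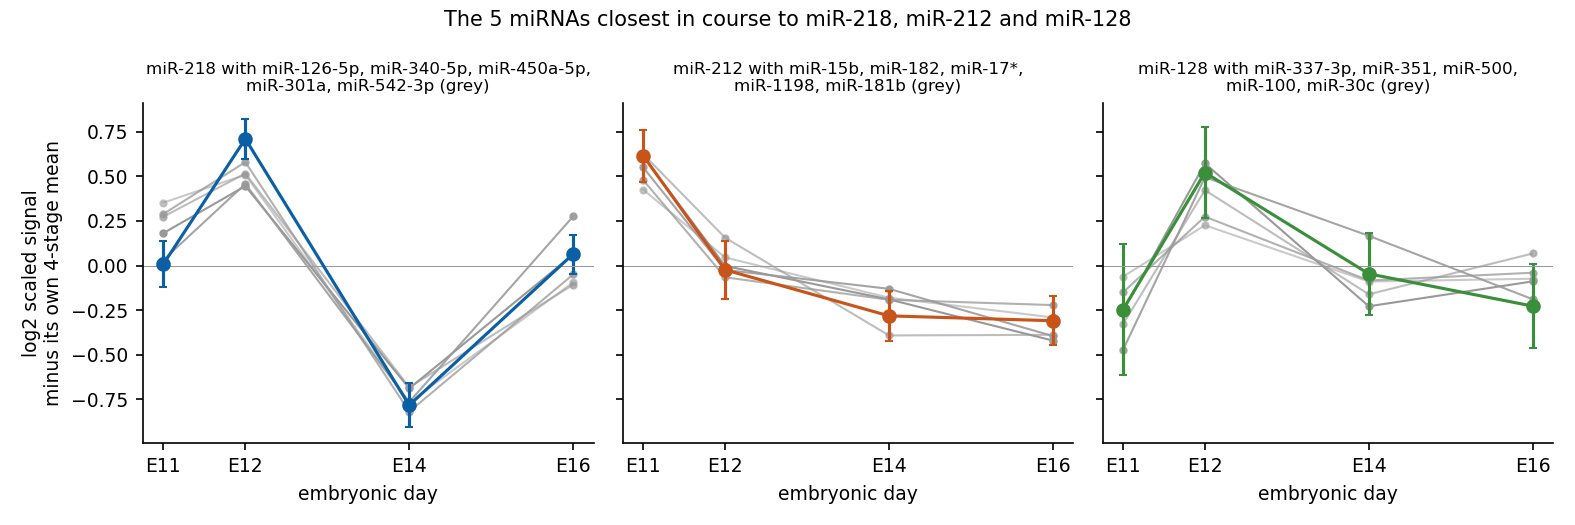
Log2 scaled signal minus its own mean over the 4 stages, against embryonic day, for miR-218, miR-212 and miR-128 (coloured, bars for the stated signal error) and for the 5 miRNAs nearest in course to each (grey). The miR-218 panel shows a low E14 point, also in the 5 neighbours, which were picked for that likeness. The miR-212 panel shows values that are highest at E11.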

How the data were processed

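Total RNA of 4 samples, 1 per stage, was labelled with Cy3 and hybridised to Agilent miRNA arrays, with 100 ng per array, per the labels' protocols. The deposited intensity of each feature is Agilent's total gene signal with its error and detection flag, per the file headers; the software, the design of the array and how background was removed are not stated there. Each array holds 696 miRNA probes and 22 control features, which were left out. A second table by the authors holds processed intensity on a linear scale. All 929 of its detected values lay within 0.1% of a quantile normalization of the deposited signals, and its medians were 123, 106, 83.7 and 83.0 over detected values and 0.1 over all values at E11, E12, E14 and E16. No centring was found.

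Detected signals were divided by the array's 75th percentile over the 197 miRNAs detected at every stage and compared as log2 differences, whose errors combine both stated errors. This scaling shifted the median of all miRNAs by -1.44 for E16 versus E11, -0.67 for E12 versus E11, -0.41 for E14 versus E12 and -0.36 for E16 versus E14. Detected signals were at least 3.01 times their error, and the median error was 9.04% to 9.55% of the signal; 1 array per stage limits the precision. At least 2-fold describes size only and implies no test. For a miRNA undetected on 1 array, a bound ("at least N-fold") uses that array's lowest detected signal in its place. The comparisons were E16 versus E11, the 3 steps, and, added after the data were seen, E16 versus E12. Alternatives were other scalings, a signal at least 5 times its error, other fold limits and a raised floor. The naming rule took all 8 members, the detected opposite arms and other brain-enriched miRNAs, and the 5 nearest courses; signal ranks between probes were not used, since probes differ in affinity. The members and lists were chosen with earlier results of these data known. The calculation was tested on simulated data. Python 3.11.15, pandas 2.3.3 and NumPy 2.4.6 were used.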

Additional observations from a re-analysis of the deposited data

How the results depend on the processing

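miR-218 stayed at least 2-fold lower at E14 than at E12 under the 6 distinct alternatives run, with log2 differences of -1.5 to -1.08; a limit of 3-fold left 0 members lower there. For E16 versus E11 the count of members at least 2-fold higher was 0, and 2 on the deposited signals. The count lower was 0, and 1 with the limit at 1.5-fold or with a scaling that left out the 24 miRNAs peaking at E14, an alternative added after the data were seen. For E12 versus E11 the count higher was 0, but 2 on the deposited signals and 2 at 1.5-fold, and the count lower was 0, and 1 at 1.5-fold. For E16 versus E14 the count higher was 0, and 1 with the 75th percentile over all probes, with median scaling, on the deposited signals and at 1.5-fold. The 1 member lower for E16 versus E12, miR-137, became 0 under the other scalings (all probes, median, quantile, none, the authors' table, without the E14 peaks), with signals at least 5 times their error and at 3-fold, and 3 members passed at 1.5-fold. Of other brain-enriched miRNAs lower for E16 versus E11, 2 became 1 with quantile normalization and in the authors' table, and 0 on the deposited signals and with median scaling. The authors' table repeats the quantile normalization. Without it, 42 of 94 alternative log2 differences of single members and 31 of 46 of their bounds moved by more than the stated error, and no difference that had passed 2-fold changed sign. No paired analysis was possible because each stage has 1 array; for the same reason no array could be left out within a stage. Faint signals limit miR-219 and the E11 value of miR-128, which both lie under 5 times their error.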

Other observations

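In the authors' deposited table, whose method no source used here states, miR-218 had 152 at E11, 243 at E12, 99.1 at E14 and 176 at E16. miR-137 had 33.9 at E16 and 60.3 at E12 in the authors' deposited table and was listed at 0.1 at the other stages.

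Picked out after their values were seen, 8 miRNAs besides miR-218 had an up, down and up course with at least 2-fold down at E14 after scaling: miR-101a, miR-126-5p, miR-301a, miR-340-5p, miR-376a, miR-411*, miR-450a-5p and miR-542-3p. On the deposited signals the 5 besides miR-218 were miR-19a, miR-369-5p, miR-376c, miR-382* and miR-411*, so that miR-411* alone appeared beside miR-218 under both scales.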
